A study of Mus musculus with 36 samples.

Results

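A set of 10 genes of the Notch pathway was followed through mouse embryonic stem cells (ESCs) and the neural stem cells (NSCs) made from them, with and without the TET enzymes. They are the receptors Notch1, Notch2 and Notch3, the ligands Dll1, Dll3 and Jag1, the receptor-modifying enzyme Lfng, and the transcription factors Hes1, Hes5 and Hey1. They were chosen by name, with earlier results of these data known. All 10 of these 10 were listed among the 17036 genes of the ESC table and the 17771 genes of the NSC table (19426 genes in either). Every one passed the filter on low values, a mean normalised count of at least 10. RNA-seq was made from 3 WT (Tet wildtype) and 2 TKO (Tet triple knockout) samples of each cell type, 10 libraries in all. All cells were male, of the V6.5 strain of mixed 129/C57BL/6 background, so that the controls share it. ESCs were freed of feeder cells by 45 minutes of preplating and kept for 24 hours on gelatin with serum and LIF, and NSCs were taken on day 6 at passage 1. The series calls the samples independent lines. The column codes do not show whether the 3 WT codes stand for separate clones, and where they do not, the p-values measure only the spread between these samples. The 2 TKO samples carry different codes, the same ones in ESCs and NSCs. Leaving out a TKO library therefore leaves out all that a code has in that cell type. For promoter contacts, the data are promoter capture Hi-C (pcHiC) of NSCs, with 1 library per genotype.

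Notch signalling passes between touching cells. A ligand of the Delta or Jagged family on one cell pulls on a Notch receptor on the next, and the receptor is then cut by ADAM proteases and by gamma-secretase. Its released inner part enters the nucleus, where it joins the DNA-binding protein RBPJ and a Mastermind coactivator and switches on targets such as the Hes and Hey genes. Hes and Hey proteins are repressors of proneural genes, and in neural tissue this keeps progenitor cells undifferentiated while neighbours that express more ligand become neurons. Fringe enzymes such as LFNG add sugars to the receptor and so change which ligands it answers to. DLL3 acts mainly inside the same cell, where it dampens Notch. TET enzymes oxidise 5-methylcytosine, a step towards loss of DNA methylation.

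RefSeq promoter windows (GRCm38.p6) of 250 bases before the annotated start were matched for 8 of the 10 genes, at 9 starts. Hes1 and Hey1 had no entry. The windows of Hes5 and Lfng are shown because they hold the core RBPJ motif GTGGGAA, searched on both strands, and those of Notch2 and Jag1 because these genes had the largest fall in TKO NSCs and a rise in TKO in both cell types. Capitals mark GTGGGAA on either strand, and all other bases are in lower case, 5′ to 3′ along the gene.
Hes5: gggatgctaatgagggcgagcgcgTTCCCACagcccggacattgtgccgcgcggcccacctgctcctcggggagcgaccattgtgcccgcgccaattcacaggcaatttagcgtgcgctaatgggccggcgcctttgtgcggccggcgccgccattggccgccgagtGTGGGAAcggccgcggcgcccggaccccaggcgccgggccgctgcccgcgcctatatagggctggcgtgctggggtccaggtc
Lfng: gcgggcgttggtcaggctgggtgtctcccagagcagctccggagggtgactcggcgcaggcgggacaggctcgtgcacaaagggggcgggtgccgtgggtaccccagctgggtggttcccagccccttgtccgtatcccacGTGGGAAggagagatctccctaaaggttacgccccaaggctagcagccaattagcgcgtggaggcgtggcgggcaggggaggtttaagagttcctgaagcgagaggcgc
Notch2: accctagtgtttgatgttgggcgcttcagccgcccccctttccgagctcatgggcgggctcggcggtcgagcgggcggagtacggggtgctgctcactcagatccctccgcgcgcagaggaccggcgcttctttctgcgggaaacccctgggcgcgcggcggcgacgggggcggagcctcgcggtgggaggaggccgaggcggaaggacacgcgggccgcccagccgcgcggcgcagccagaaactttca
Jag1: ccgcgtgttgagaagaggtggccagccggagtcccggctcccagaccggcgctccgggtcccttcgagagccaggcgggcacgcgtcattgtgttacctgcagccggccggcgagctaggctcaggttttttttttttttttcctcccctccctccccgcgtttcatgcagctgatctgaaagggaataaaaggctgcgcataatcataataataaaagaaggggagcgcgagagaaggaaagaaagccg

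The Hes5 window lies on the plus strand at chr4:154960673-154960922, inside the annotated gene span. Its 2 motif copies begin 226 bases before the start on the opposite strand and 83 bases before it on the gene's own strand, 143 bases apart. Of 32851 mouse promoter windows of this length, 5.42% held the motif at least once and 0.161% held 2 or more copies. Lfng (plus strand, chr5:140607091-140607340) has 1 copy, 109 bases before the start. It overlaps the E-box CACGTG, a site type bound by Hes and Hey proteins, which begins 112 bases before the start and occurs in 6.02% of windows. The windows of Notch2 (plus strand, chr3:98013288-98013537), Jag1 (minus strand, chr2:137116521-137116770), Notch1, Notch3, Dll1 and Dll3 held no GTGGGAA. The N-box CACNAG, another Hes site, was found once each in the windows of Lfng, Notch1 and Notch2 and at 2 places in that of Notch3, against 36.7% of all windows with at least 1. These are matches of letters only. In CpG dinucleotides, the targets of DNA methylation, the Notch2 window was richest with 34, then Hes5 with 32, one of the Dll1 windows with 21, Jag1 with 20 and Lfng with 18. Dll3 had the fewest of the 9 windows, 10, and the median over all windows was 6.00.

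The libraries held 41.0 to 49.1 M reads. Tet1 was lower in both TKO ESC libraries (4635 to 4966) than in the WT libraries (9634 to 12237), and Tet3 was lower in TKO NSCs (2379 to 2597, against 4049.9 to 4208). Tet2 was lower in TKO ESCs (1661 to 1700.3, against 2156 to 2893) but not in TKO NSCs, where the groups overlapped (1146 to 1555, against 1066 to 1295). Counts include reads outside any deleted part, so these levels do not measure working transcript. All 8 neural stem cell markers (Nes, Sox1, Sox2, Pax6, Fabp7, Slc1a3, Vim and Msi1) were detected in every NSC library, and all 8 were lower in both TKO NSC libraries than in each WT one, with summed levels of 188321 to 197916 against 380211 to 392233. Of 6 fibroblast and mesenchyme markers, 5 were higher and 1 lower in TKO NSCs (sums of 116146 to 135976 against 44200.3 to 55870.4). Of 6 pluripotency markers, 4 were higher and 1 lower in TKO NSCs (sums of 2610.2 to 5107 against 1089 to 1270.4). Of 3 listed presomitic mesoderm markers, T was higher in TKO NSCs and the other two overlapped (sums of 2612 to 3282 against 679 to 800.0). None of these markers was at 0 in any library. The part these cells have in the results below was not tested. In bulk RNA, fewer cells of a type and less RNA per cell cannot be told apart.

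In ESCs, few of the 10 genes passed the test between TKO and WT. Jag1 rose and Notch3 fell, and the other 8 did not pass the test (limma on log2(value + 1), Benjamini-Hochberg adjusted p under 0.05 over all genes). That is 2 of 10, with 1 in each direction, where 14.3% of the 17033 genes tested were called, 7.29% higher and 7.02% lower. The TKO and WT libraries did not overlap for 6 of the 10 genes, against 43.4% of all genes tested. The median log2 change of the 10 was 0.24, and that of all genes 0.01. Pluripotency markers were also higher in TKO ESCs, 4 of 6 of them in both libraries, with sums of 161681 to 173509 against 133533 to 147428. Of 5 listed neuron markers 3 were lower and none higher in both TKO ESC libraries (sums of 11374 to 12088 against 13666 to 14868). Of 3 listed endothelial markers 2, Pecam1 and Tek, were higher (sums of 3114 to 4277 against 2088 to 2321). Most of these sums was Pecam1 (2831 to 3854 against 1915 to 2137), which measured only 11.9 to 24.8 in WT NSCs. Tek measured 205 to 363 in TKO ESCs, against 111 to 163 in WT ESCs, and Kdr overlapped. Whether the cultures held endothelial cells was not tested. The part of these marker changes was not tested.

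Among the receptors in ESCs, Notch3 (chromosome 17, 32120820 to 32166896) measured 2745, 2782 and 3054 normalised counts across WT libraries, against 2181 and 2269 for TKO libraries. Both TKO libraries lay below every WT library, and Notch3 fell by 0.36 on the log2 scale (SE 0.10, limma adjusted p = 0.0240). The call was lost without any 1 of WT replicate 2, WT replicate 3, TKO replicate 1 or TKO replicate 2 (adjusted p of up to 0.115). Notch1 (chromosome 2, 26457902 to 26503822), the receptor best known for neural progenitor maintenance, measured 2459, 1593 and 1682 across WT, against 2039.8 and 2337 for TKO. WT replicate 1 was the highest of the 5 libraries, so that the groups overlapped, and the difference of 0.22 (SE 0.15) did not pass (limma adjusted p = 0.387). Without that library it was 0.42 and passed (limma adjusted p = 0.0249). Notch2 (chromosome 3, 98013538 to 98150367) measured 1752, 1419 and 1278 across WT, against 1546 and 2011 for TKO, and its groups overlapped too (0.26, SE 0.15).

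Jag1 (chromosome 2, 137081451 to 137116520), a Jagged ligand whose signal to Notch1 is weakened by LFNG, measured 1813, 1577 and 1455 across WT ESCs, against 2124 and 2426 for TKO ESCs. Every TKO value was above every WT value, and Jag1 rose by 0.50 (SE 0.12, limma adjusted p = 0.0107), 1.41-fold. The call was lost without WT replicate 3 (limma adjusted p = 0.0543) or TKO replicate 2 (limma adjusted p = 0.147). Dll1 (chromosome 17, 15367354 to 15376932), the main Delta ligand of neural progenitors, varied widely, with 1609, 1049 and 1332 across WT and 1388 and 1766 for TKO. Its groups overlapped (0.26, SE 0.16). Dll3 (chromosome 7, 28293555 to 28301785) was lower in count, with 438, 410.2 and 459 across WT, against 479 and 579 for TKO. Both TKO values lay above the WT values, by a margin that did not pass (0.27, SE 0.17, limma adjusted p = 0.333). Lfng (chromosome 5, 140607341 to 140615545) measured 359.6, 429 and 403 across WT, while its TKO libraries lay far apart, with 602 and 340.2, one above and one below every WT library.

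Hes1 (chromosome 16, 30065357 to 30067796), the target shared by Notch and other signals and expressed in waves in ESCs, measured 3389.8, 3322 and 3217 across WT ESCs, against 2954 and 2534 for TKO ESCs. The groups were apart, but the difference of -0.27 (SE 0.10) missed the threshold (limma adjusted p = 0.0828). Without TKO replicate 1 it was -0.38 and passed (limma adjusted p = 0.0477). Hey1 (chromosome 3, 8663359 to 8667038) measured 341, 339 and 421 across WT, against 299.6 and 284 for TKO, also apart and also short of the threshold (-0.32, SE 0.20). Hes5 (chromosome 4, 154960626 to 154962372), a target closely tied to Notch activity in neural progenitors, was the lowest count of the set, with 105, 118 and 139.9 across WT, against 171 and 153 for TKO. Its TKO libraries were above the WT libraries, with a difference of 0.43 whose interval ran from -0.18 to 1.03.

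**Figure D1:**
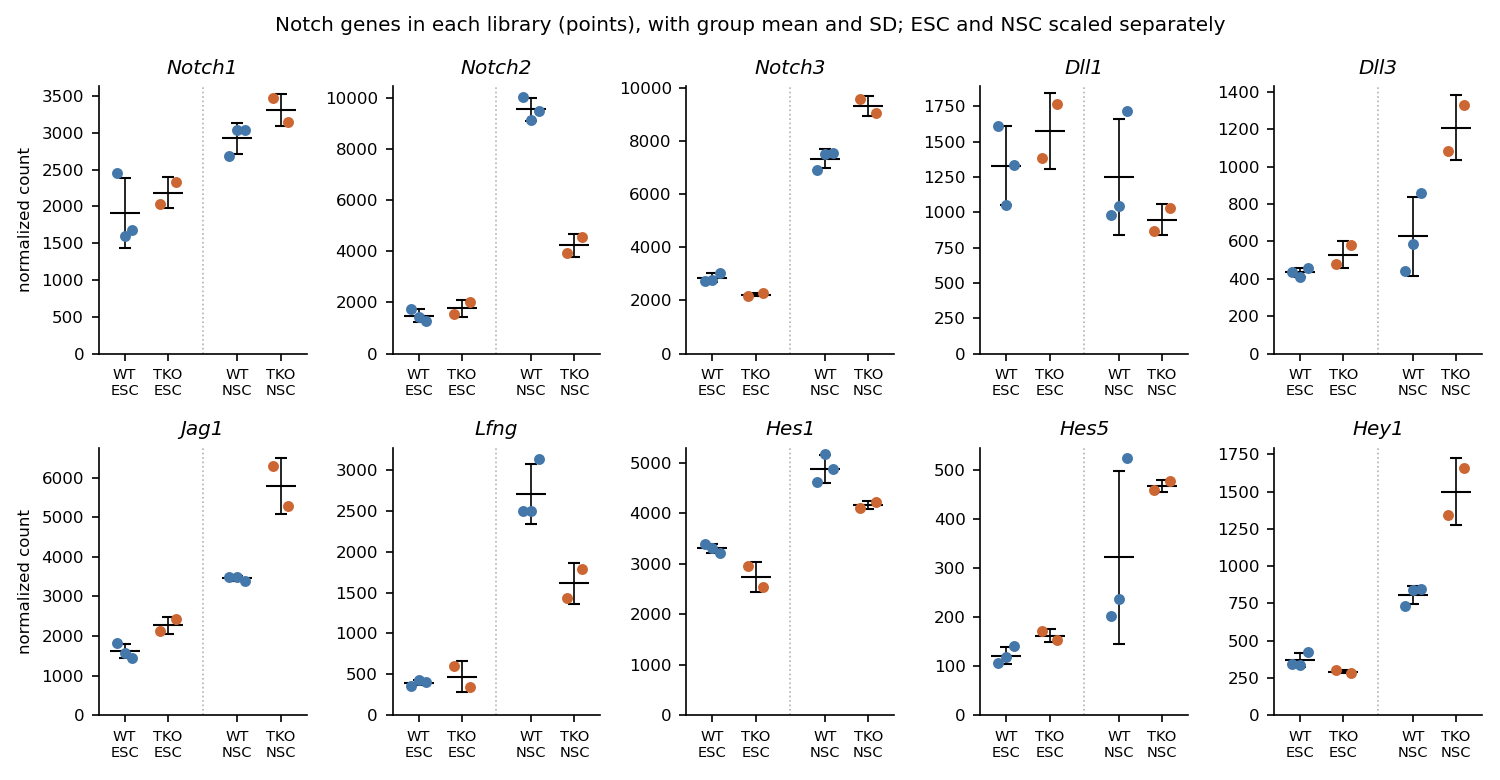
Normalised counts (linear axis from 0) of the 10 Notch pathway genes in WT and TKO ESCs and NSCs; each point is 1 library, and the horizontal and vertical bars are the group mean and its SD. Notch2 shows the widest gap, with WT NSC libraries between 9138 and 10037 and TKO NSC libraries at 3919.6 and 4545, and each cell type's values come from a table normalised on its own.

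In NSCs, most of the set differed between TKO and WT, in both directions. Notch2, Lfng and Hes1 fell, and Jag1, Hey1, Dll3 and Notch3 rose, so that of the receptors 1 fell and 1 rose and of the Hes and Hey genes 1 fell and 1 rose. Notch1, Dll1 and Hes5 did not pass. In all, 7 of 10 were called, 4 higher and 3 lower, where 37.7% of 17744 genes were called, 18.2% higher and 19.5% lower. The groups did not overlap for 8 of the 10 genes (5 with TKO above and 3 with TKO below), against 59.9% of all genes. The median log2 change was 0.26, against 0.01 for all genes. These changes stand beside the lower neural stem cell markers and higher mesenchyme markers of TKO NSCs given above.

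Notch2, a receptor of neural stem cells and of many mesenchymal cells, had the largest change. It measured 10037, 9138 and 9503 across WT NSCs, against 3919.6 and 4545 for TKO NSCs. Every TKO value was far below every WT value. Notch2 fell by 1.18 on the log2 scale (SE 0.08, limma adjusted p = 6.73e-07), 2.26-fold, and by between 1.07 and 1.28 in all 13 alternatives. Notch3 went the other way, from 6929.9, 7516 and 7575 in WT to 9597 and 9054 in TKO. The groups were apart, and Notch3 rose by 0.35 (SE 0.07, limma adjusted p = 0.00150). Notch3 is the receptor of vascular mural cells and is also made by neural progenitors. Notch1 measured 2688, 3045 and 3046 across WT, against 3468 and 3154 for TKO. Its TKO values were just above the WT values, and the difference of 0.18 (SE 0.08, interval -0.01 to 0.36) did not pass (limma adjusted p = 0.122).

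The ligands diverged in NSCs. Jag1 measured 3487, 3499 and 3381 across WT, against 6306 and 5289.8 for TKO. The WT libraries were close together and far below both TKO libraries, and Jag1 rose by 0.74 (SE 0.08, limma adjusted p = 3.07e-05), 1.67-fold. Dll3 measured 440.2, 587 and 858 across WT, against 1085 and 1332 for TKO. It rose by 0.99 (SE 0.23, limma adjusted p = 0.00492), with WT replicate 3 nearest to the TKO libraries. Without TKO replicate 2 the change was 0.84 and the call was lost (limma adjusted p = 0.0641). Dll3 also belongs to the segmentation clock of the presomitic mesoderm. Of the listed markers of that tissue, T was higher in TKO NSCs, while Tbx6 and Mesp2 overlapped. Their part in the Dll3 value was not tested. Dll1 measured 979, 1043 and 1720.1 across WT, against 869 and 1028 for TKO. WT replicate 3 alone stood high, the groups overlapped, and the difference was -0.35 with an interval from -0.80 to 0.10.

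Lfng measured 2504, 2499.7 and 3137 across WT NSCs, against 1435 and 1792 for TKO NSCs. Both TKO values were well below the WT values, and Lfng fell by 0.75 (SE 0.12, limma adjusted p = 0.000556), 1.68-fold. Mfng and Rfng, the other fringe genes, rose by 0.91 (SE 0.25, limma adjusted p = 0.0157) and 0.52 (SE 0.10, limma adjusted p = 0.00246). The Mfng call was lost with robust moderation of the variances (limma adjusted p = 0.0602) and without WT replicate 1, WT replicate 2 or TKO replicate 2 (limma adjusted p of up to 0.150). The 3 fringe genes therefore did not move in the same direction in TKO NSCs.

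Hes1 measured 4618, 5171 and 4875 across WT NSCs, against 4112 and 4220.3 for TKO NSCs. The groups were apart by a small margin, and Hes1 fell by 0.23 (SE 0.07, limma adjusted p = 0.0252), 1.17-fold. This call was lost with libraries scaled to equal totals (limma adjusted p = 0.0598) and without any 1 of WT replicate 2, WT replicate 3, TKO replicate 1 or TKO replicate 2 (limma adjusted p of up to 0.111). Hey1 measured 734, 837 and 843 across WT, against 1341 and 1658 for TKO. It rose by 0.89 (SE 0.12, limma adjusted p = 0.000178), 1.86-fold, with wide separation of the groups. Hey1 is a Notch target of blood vessels and mesenchyme as well as of neural progenitors. Of 4 listed endothelial markers, Pecam1 and Tek were higher and Cdh5 and Kdr lower in both TKO NSC libraries (sums of 944 to 1107 against 1977 to 2443), and their part in the Hey1 value was not tested.

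Hes5 in NSCs turned on a WT library. Its WT values were 202, 237 and 524 and its TKO values 458 and 476. WT replicates 1 and 2 were less than either TKO library, while WT replicate 3 was more than both, and the difference of 0.67 (SE 0.33) did not pass (limma adjusted p = 0.133). Without WT replicate 3 it was 1.09 and passed (limma adjusted p = 0.00313). The same library was the highest WT NSC library for Dll1, Dll3 and Lfng, and by small margins for Notch1, Notch3 and Hey1. In it the summed level of 6 proneural genes was 3359.6, against 2441 and 2193 in the other WT libraries, and that of 6 neuron markers was 15435, against 12471 and 12175. The sums of astrocyte markers (859.6, against 539 and 716) and of pluripotency markers were also highest there. Those of neural stem cell, mesenchyme and endothelial markers were lowest there. The part of these cells in the Hes5 value was not tested. Without WT replicate 3, Dll3 rose by 1.24 (limma adjusted p = 0.000661), Lfng fell by 0.64 (limma adjusted p = 0.00285), and Dll1 differed by -0.10 (limma adjusted p = 0.639).

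**Figure D2:**
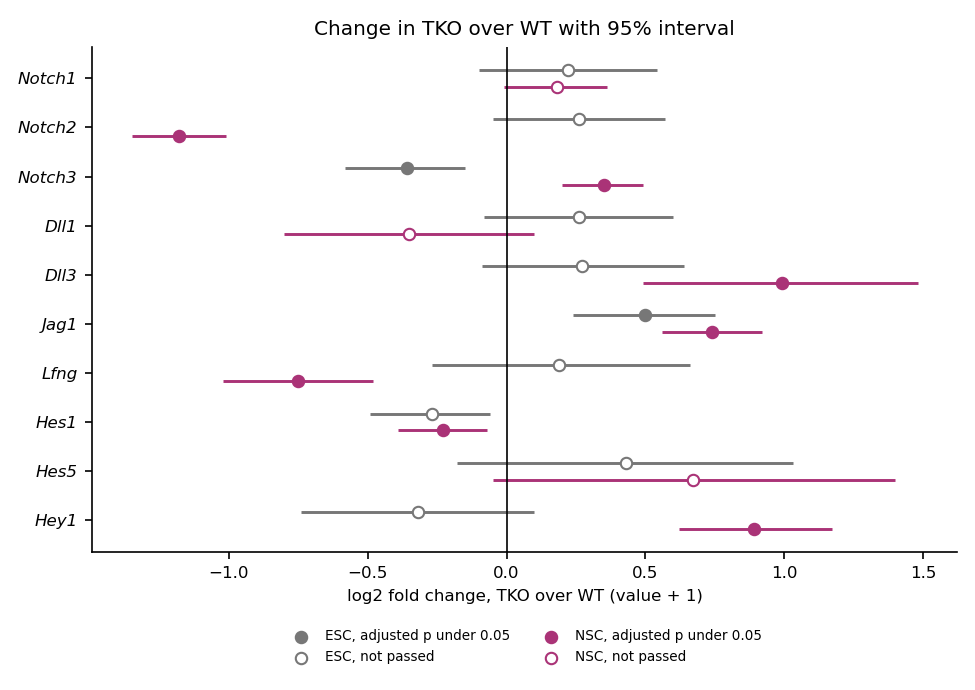
Log2 fold change of TKO over WT (value + 1) for each gene, in ESCs and in NSCs, with its 95% interval; filled points passed an adjusted p under 0.05. Jag1 and Notch3 are filled in both cell types, Jag1 at 0.50 and 0.74, Notch3 at -0.36 in ESCs and 0.35 in NSCs.

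Whether the TKO effect itself differed between the cell types was tested as an interaction over the 15381 genes of both tables. It differed for 4 of the 10 genes, where 20.7% of all genes were called (10.9% higher and 9.80% lower in NSCs). Notch2 had the largest such difference. Its TKO effect was lower in NSCs than in ESCs by 1.44 on the log2 scale (SE 0.19, limma adjusted p = 0.000102, difference -1.44). For Hey1 it was higher by 1.21 (SE 0.22, limma adjusted p = 0.00164), the TKO values being below WT in ESCs (not called) and above WT in NSCs. For Notch3, called in both cell types with opposite signs, it was higher by 0.71 (SE 0.11, limma adjusted p = 0.000341). For Lfng the difference was -0.94 (SE 0.28, limma adjusted p = 0.0302), and this call was lost without any 1 of WT ESC replicate 1, TKO ESC replicate 1, WT NSC replicate 3 or TKO NSC replicate 1. Leaving out TKO ESC replicate 1, the library with 602 counts of Lfng, gave -0.53 (limma adjusted p = 0.135). Jag1, raised in both cell types, did not pass (0.24, interval -0.08 to 0.56), and neither did Hes1 (0.04, interval -0.20 to 0.29). Dll3 was at 0.72 (limma adjusted p = 0.132), and at 0.97 without WT NSC replicate 3 (limma adjusted p = 0.0217). Hes5 (0.25), Notch1 (-0.04) and Dll1 (-0.61) did not pass either.

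The change from ESC to NSC was read on recovered reads of all 10 libraries scaled together, and it shares its libraries with the comparisons above. In WT cells, Lfng and Notch2 rose most, and Notch3, Hes5, Hey1 and Jag1 rose less. Dll1 fell, and Notch1, Hes1 and Dll3 did not pass. In TKO cells, Hey1 and Notch3 rose most, and Dll3 rose too. In WT cells 7 of 10 genes were called, 6 higher and 1 lower, where 75.3% of 15381 genes were called (37.8% higher and 37.5% lower). In TKO cells 8 were called, 7 higher and 1 lower, where 70.2% were called (35.4% higher and 34.8% lower). The median log2 change of the 10 was 0.67 in WT and 0.84 in TKO, against -0.00 over all genes in each.

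Lfng rose from 463 ± 39.2 jointly scaled counts in WT ESCs to 2314 ± 312 in WT NSCs (SD, n = 3 each), a log2 change of 2.31 (SE 0.18). In TKO cells it rose from 549 ± 220.0 to 1361 ± 206 (SD, n = 2 each), by 1.36 (SE 0.22). Notch2 rose from 1730.1 ± 294 to 8151 ± 394 in WT, by 2.25 (SE 0.12), and from 2067 ± 365 to 3571 ± 357 in TKO, by 0.80 (SE 0.14). Both genes thus reached their highest levels in WT NSCs. For Notch2 the order was WT NSC, TKO NSC, TKO ESC and WT ESC, and the 2 ESC groups overlapped. The order was the same for Lfng, again with overlap between the ESC groups.

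Hey1 rose from 428 ± 52.5 to 686 ± 51.7 in WT, by 0.68 (SE 0.14), and from 339.7 ± 15.2 to 1265 ± 183 in TKO, by 1.89 (SE 0.17). Its levels ran from TKO NSC through WT NSC and WT ESC down to TKO ESC, and no neighbours in this order overlapped. Notch3 had the same order without overlap, and rose by 0.91 (SE 0.07) in WT and by 1.60 (SE 0.08) in TKO. Jag1 rose by 0.65 (SE 0.10) in WT and 0.88 (SE 0.12) in TKO. Its order was TKO NSC (4895 ± 629), WT NSC (2946 ± 56.4), TKO ESC (2645 ± 227) and WT ESC (1884 ± 223), with no overlap between neighbours.

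Dll1 alone of the 10 was called lower in NSCs. It fell by 0.57 (SE 0.20, limma adjusted p = 0.0173) in WT and by 1.19 (SE 0.24, limma adjusted p = 0.000486) in TKO. Its order was TKO ESC, WT ESC, WT NSC and TKO NSC, and each group overlapped the next. The WT call was lost without any 1 of WT ESC replicate 1, WT NSC replicate 1 or WT NSC replicate 2 (limma adjusted p of up to 0.0920). Dll3 was level in WT, 508 ± 28.0 in ESCs and 536 ± 180.2 in NSCs (0.02, interval -0.40 to 0.45), and rose by 0.73 (SE 0.24, limma adjusted p = 0.0151) in TKO. This TKO call was lost without TKO ESC replicate 1 (limma adjusted p = 0.0941) or TKO NSC replicate 2 (limma adjusted p = 0.108). TKO NSCs stood apart above the other groups for Dll3, whose other neighbours overlapped.

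Hes5 rose from 141 ± 19.9 to 273 ± 150.4 in WT, by 0.83 (SE 0.30, limma adjusted p = 0.0219), and from 188 ± 16.3 to 394 ± 8.87 in TKO, by 1.07 (SE 0.37, limma adjusted p = 0.0186). The WT call was lost without WT NSC replicate 3 (0.41, limma adjusted p = 0.150) or WT ESC replicate 1 (limma adjusted p = 0.0657). The TKO call was lost without any 1 of TKO ESC replicate 2, TKO NSC replicate 1 or TKO NSC replicate 2 (limma adjusted p of up to 0.0782). Its order was TKO NSC, WT NSC, TKO ESC and WT ESC, with overlap between all neighbours but the last pair. Hes1 changed least of the target genes, with 3859 ± 121 and 4168 ± 232 in WT (0.11, interval -0.05 to 0.27) and 3193 ± 371 and 3516 ± 48.7 in TKO (0.14, interval -0.05 to 0.34). Its order was WT NSC, WT ESC, TKO NSC and TKO ESC, with overlap only between the WT groups. Notch1 differed by 0.19 (interval -0.10 to 0.48) in WT and by 0.14 (interval -0.22 to 0.49) in TKO, and each of its groups overlapped the next. Without WT ESC replicate 1 its WT change was 0.39 and passed (limma adjusted p = 0.00153), and without TKO ESC replicate 1 the TKO change of Hes1 was 0.26 and passed (limma adjusted p = 0.0291).

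These changes depend on how ESC and NSC libraries are scaled to each other. With all libraries set to equal totals, the median of all genes moved up by 0.33 in WT and by 0.39 in TKO. The calls over all genes then split into 7208 higher and 4544 lower in WT (5815 and 5769 with the joint scaling) and 7070 higher and 3859 lower in TKO (5439 and 5359). Notch1 and Hes1 then passed as higher in NSCs, with log2 changes of 0.52 and 0.44 for WT cells and of 0.53 and 0.54 for TKO cells. Dll1 no longer passed in WT (-0.24, limma adjusted p = 0.294). None of the 10 genes that were called changed direction under equal totals.

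**Figure D3:**
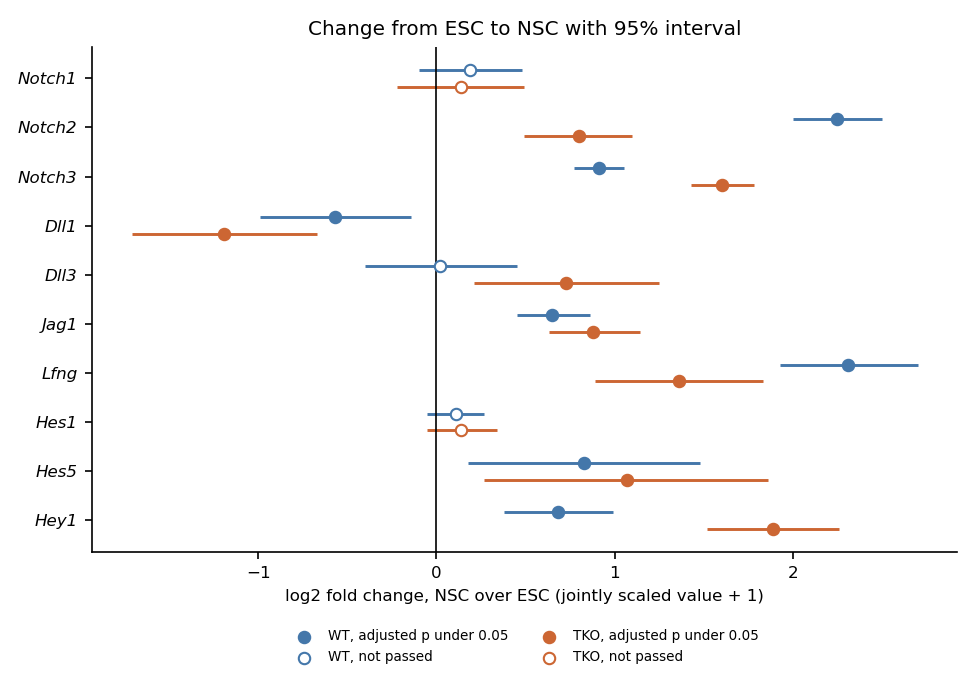
Log2 fold change of NSC over ESC (jointly scaled value + 1) in WT and in TKO cells, with 95% intervals; filled points passed an adjusted p under 0.05. Lfng and Notch2 are farthest right in WT (2.31 and 2.25), and Hey1 and Notch3 in TKO (1.89 and 1.60).

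The other genes of the pathway were taken as 7 lists of 57 genes. In TKO NSCs 55 of them were tested, and 13 rose and 17 fell, where 18.2% of all genes rose and 19.5% fell, with a median of -0.11 against 0.01 over all genes. In TKO ESCs 53 were tested, and 6 rose and 4 fell, where 7.29% of all genes rose and 7.02% fell, with a median of 0.11 against 0.01. From ESC to NSC 51 were tested, of which 26 rose and 11 fell in WT (75.3% of all genes called, 37.8% higher and 37.5% lower) and 23 rose and 11 fell in TKO (70.2% called, 35.4% higher and 34.8% lower). The TKO effect differed between the cell types for 14 of 51, higher in NSCs for 6 and lower for 8, where 20.7% of all genes were called. The shares of all genes that were called, 37.7% in TKO NSCs and 14.3% in TKO ESCs, also stand behind the counts of the single lists that follow, each of 10 genes or fewer.

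Among other receptors and ligands in NSCs, 2 rose and 1 fell of 6, against 37.7% of all genes called. Dlk1, a non-canonical ligand without the Delta domain that engages the receptor, rose by 1.23 (SE 0.10, limma adjusted p = 2.92e-06), and Dner, another non-canonical ligand, by 0.51 (SE 0.18). Jag2 fell by 0.45 (SE 0.13), opposite to Jag1. In ESCs 1 of 5 rose and 2 fell, namely Notch4 (0.77, SE 0.16), Jag2 (-0.69, SE 0.12) and Dner (-1.75, SE 0.38). Jag2 was therefore called lower in TKO in both cell types, where Jag1 was called higher. The NSC call of Jag2 was lost without any 1 of WT replicate 1, WT replicate 3 or TKO replicate 2 (limma adjusted p of up to 0.183). The NSC call of Dner was lost without any 1 of WT replicate 1, WT replicate 2, TKO replicate 1 or TKO replicate 2, and the ESC calls of Dner and Notch4 without TKO replicate 2.

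Among genes of receptor glycosylation and ligand endocytosis, 3 of 8 rose and 2 fell in NSCs (18.2% and 19.5% of all genes). Besides Mfng and Rfng, Neurl1a, a ubiquitin ligase that takes up ligands, rose by 1.01 (SE 0.15), and its relative Neurl1b fell by 0.58 (SE 0.17). In ESCs limma called 0 of the 8, with 3 higher at an unadjusted p under 0.05, and on recovered reads edgeR called 0 and DESeq2 1. For receptor cleavage, 3 of 10 rose and 3 fell in NSCs, beside the same shares. The gamma-secretase catalytic gene Psen2 rose by 0.60 (SE 0.15), and Furin, which cuts the receptor on its way to the surface, fell by 0.40 (SE 0.08). Aph1b (0.39, SE 0.13) and Aph1c (-1.29, SE 0.43) were called with opposite signs, but they are near copies between which reads may be split. In ESCs only the ADAM protease gene Adam10 was called, at 0.55 (SE 0.15), and not without WT replicate 3 or TKO replicate 2. In NSCs the calls of Neurl1b and Aph1b were lost without any 1 of WT replicate 1, WT replicate 3 or TKO replicate 2, that of Aph1c without any 1 of WT replicate 1, WT replicate 2, TKO replicate 1 or TKO replicate 2, and that of Psen2 without TKO replicate 1.

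In the nuclear complex, 4 of 10 genes rose and 3 fell in NSCs, against 18.2% and 19.5% of all genes. The Groucho corepressors of Hes proteins Tle2 and Tle1 rose by 1.35 (SE 0.19) and 0.97 (SE 0.08), and of the Mastermind coactivators Maml1 rose by 0.64 (SE 0.08) and Maml2 fell by 0.67 (SE 0.13). In ESCs Tle5 and Tle4 rose, by 0.39 (SE 0.10) and 0.30 (SE 0.10). Among modulators of the pathway, 1 of 9 rose and 4 fell in NSCs, beside these shares. Dtx4 fell by 0.54 (SE 0.14), Numbl, a relative of the Notch inhibitor Numb, by 0.47 (SE 0.07), and Fbxw7, which marks the active receptor for destruction, by 0.39 (SE 0.09). Dtx2 rose by 0.45 (SE 0.09) in NSCs and by 0.43 (SE 0.12) in ESCs, where Dtx1 fell by 0.46 (SE 0.14). The ESC calls of Tle4 and Dtx1 were lost without any 1 of WT replicate 2, WT replicate 3, TKO replicate 1 or TKO replicate 2, and Tle4 also with equal totals (limma adjusted p = 0.0665), a pseudocount of 0.5 (limma adjusted p = 0.0518) and edgeR (adjusted p = 0.0664). The ESC call of Dtx2 was lost without WT replicate 1 or either TKO replicate, and that of Tle5 without TKO replicate 1. The NSC call of Dtx4 was lost with robust moderation of the variances (limma adjusted p = 0.0720) and without WT replicate 2 or TKO replicate 1. Without TKO replicate 1 its change was -0.24.

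Of the other Hes, Hey and target genes, 0 rose and 3 of 6 fell in TKO NSCs, with a list median of -0.79 (limma, and edgeR and DESeq2 on recovered reads alike; 0 were higher at an unadjusted p under 0.05). Over all genes 18.2% rose and 19.5% fell, with a median of 0.01. Hey2 fell by 1.21 (SE 0.32, limma adjusted p = 0.0119), opposite to Hey1. Hes6, which opposes Hes1 and is itself made as neurons form, fell by 0.99 (SE 0.09, limma adjusted p = 9.51e-06). Nrarp, a target that feeds back on the receptor, fell by 0.59 (SE 0.20, limma adjusted p = 0.0369). The Nrarp call was lost with equal totals and without WT replicate 2, WT replicate 3 or either TKO replicate (limma adjusted p of up to 0.143), and that of Hey2 without WT replicate 3 or TKO replicate 1. In ESCs Nrarp fell by 1.19 (SE 0.27) and Hes6 rose by 0.53 (SE 0.13), and both calls were lost without TKO replicate 2. Of 6 proneural genes tested in NSCs, limma called 1, Neurog2, and on recovered reads edgeR called 1 and DESeq2 2, all lower. Neurog2 fell from 492 ± 96.3 (SD, n = 3) to 10.3 ± 6.25 (SD, n = 2), a log2 change of -5.55 (SE 0.39, limma adjusted p = 1.18e-06).

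**Figure D4:**
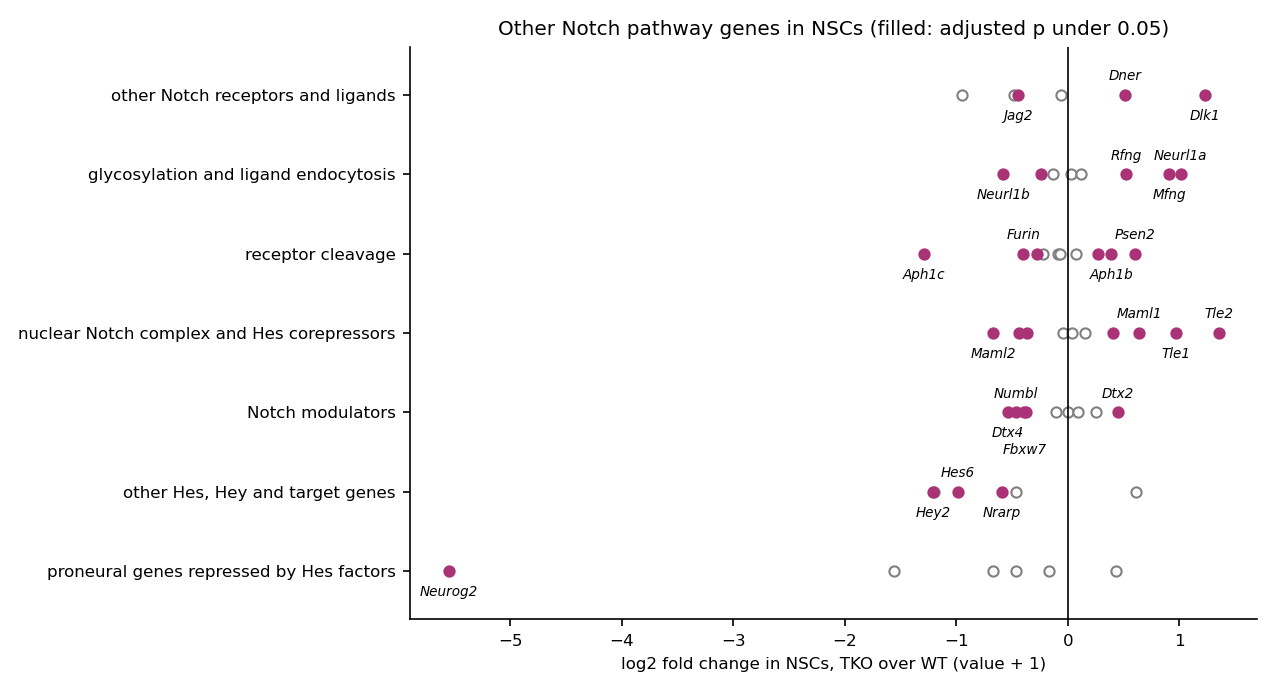
Log2 fold change of TKO over WT in NSCs for the genes of the 7 other Notch pathway lists, 1 point per gene and 1 row per list; filled points passed an adjusted p under 0.05 and the named ones have the largest changes. Of 55 genes 13 are filled to the right of 0 and 17 to the left, with Neurog2 at -5.55.

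On differentiation, the lists showed the surroundings in which the 10 genes changed. Of 10 receptor cleavage genes, 8 rose in WT and 6 in TKO by limma, edgeR and DESeq2 alike, and 0 fell, also at an unadjusted p under 0.05. Of all genes 37.8% rose and 37.5% fell in WT, and 35.4% rose and 34.8% fell in TKO. Adam10 rose by 2.35 (SE 0.12) in WT and by 1.86 (SE 0.14) in TKO. Rbpj, the DNA-binding partner of Notch, fell by 2.03 (SE 0.08) in WT and by 2.11 (SE 0.09) in TKO. Maml2 rose by 4.83 (SE 0.24) in WT and by 3.35 (SE 0.29) in TKO. Notch4 fell, with log2 changes of -2.74 (SE 0.24) in WT and -3.59 (SE 0.30) in TKO. Hes6 rose by 2.43 (SE 0.10) in WT and by 0.90 (SE 0.12) in TKO. The TKO effect on Hes6 was lower in NSCs than in ESCs, a difference of -1.52 (SE 0.15, limma adjusted p = 1.21e-05).

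The genes of most similar pattern over the 10 jointly scaled libraries were sought among 15380 genes by the root mean square difference of centred log2 values. This measure is not scaled to a gene's own spread, so genes that change little lie close to one another. Hes1 and Notch1 were not called between ESC and NSC in either genotype, so their small distances need not mean a shared pattern. Nearest to Hes1 were Plbd2 and Prr3, both at 0.07. Notch1 lay nearest to Tut7 (0.09) and Ric1 (0.10), and Dll1 to Arid4a (0.19) and Zgrf1 (0.22). Nothing came as close to Hes5, whose nearest were Gm9828 (0.28) and Gdap1l1 (0.29). No other gene of the 10 was among these nearest genes.

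Promoter contacts were read from the authors' loop lists of 1 WT and 1 TKO NSC library, with no replicates and so no test. The lists hold 51990 distinct loops in WT and 51122 in TKO, each with the authors' score of at least 5, a value that ranks loops within a list. The promoter fragments of the 10 genes, apart from Notch1, whose start lay in no listed fragment, had 44 loops in WT and 44 in TKO. Of these, 16 led to the same partner fragment in both. With a score of at least 10 there were 10 in WT and 7 in TKO, and with either end of a gene's span counted 48 and 53. Fewer loops were listed in TKO for Jag1, Lfng and Hes1, and more for Notch2, Notch3, Dll1, Dll3, Hes5 and Hey1. Over 11046 genes with loops, 48.1% had fewer and 37.3% more in TKO. Without chromosomes 6, 8 and 11, which hold none of the 10 genes, these shares were 51.1% and 33.6% of 8938 genes.

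Jag1 had the largest difference, with 7 loops in WT and 2 in TKO, and 7.34% of the 11046 genes had at least 5 fewer. Its strongest WT loop, with a score of 19.63, led 225 kb downstream to chr2:136888682-136893709, a fragment with the starts of Mkks and Slx4ip. The same loop was listed in TKO with a score of 5.75. A WT loop with a score of 15.07 led 617 kb upstream to chr2:137730937-137736266 and was listed in WT only. The neighbouring fragment, 612 kb upstream, was linked in both lists (6.07 in WT and 6.59 in TKO). Jag1 RNA was higher in TKO NSCs, as given above.

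Lfng had 5 loops in WT and 2 in TKO. The shared one led 42.6 kb upstream to chr5:140562162-140567364, with scores of 10.53 in WT and 11.43 in TKO. Of the other 4 in WT, 3 led to adjoining fragments between 58.0 and 68.2 kb upstream, with scores of 5.17 to 5.58. Hes1, placed by either end of its span, had 3 loops in WT and 1 in TKO with no shared partner. The strongest in WT had a score of 12.56 and led to chr16:29733094-29738191, 329.7 kb away at lower coordinates, and the TKO loop (5.78) ended 252 kb away on the same side.

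The Delta genes had the most loops. Dll1 had 12 in WT and 15 in TKO, of which 5 shared a partner, and most led downstream. Its strongest loop was the same in both, 311 kb downstream at chr17:15063780-15068840, with scores of 13.64 in WT and 16.36 in TKO. Dll3 had 12 in WT and 13 in TKO, with 6 shared. Its strongest WT loop (13.90) led 252 kb downstream to the fragment with the start of Psmc4 and scored 5.61 in TKO. The strongest TKO loop (18.37) led 155 kb downstream to chr7:28144580-28149810 and scored 10.02 in WT.

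Hes5 had 2 loops in WT and 4 in TKO. The loop to the start of Pex10, 106 kb downstream, was shared (8.10 in WT and 6.52 in TKO), and the strongest in TKO led 287 kb downstream to the start of Faap20 (10.01) and was not listed in WT. Hey1, placed by either end of its span and so counted over 2 fragments, had 2 loops in WT and 4 in TKO. Not all of these need start at its promoter. The strongest WT loop of Hey1 (9.85), 259 kb away at higher coordinates, scored 5.13 in TKO. Among the receptors, Notch2 had 1 loop in WT (5.71) and 2 in TKO (8.29 and 5.57), none shared, and Notch3 had none in WT and 1 in TKO (6.75), which led to the fragment with the starts of Hsf2bp and Rrp1b. The start of Notch1 lay in no fragment of either list, so that no loop could be counted from it. The lists do not show whether that fragment was captured.

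**Figure D5:**
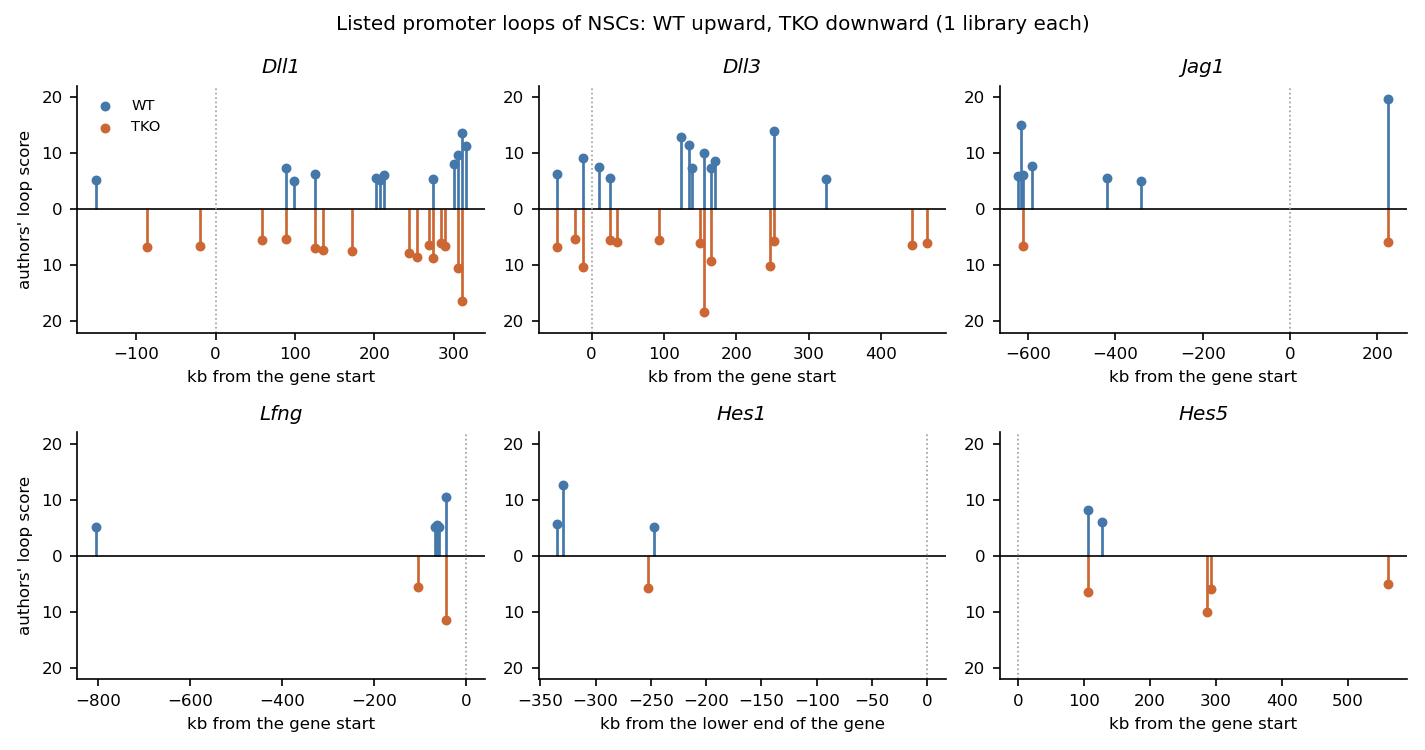
Loops from the promoter fragments of 6 of the Notch pathway genes in NSCs, with the distance of the partner fragment from the gene in kb on the horizontal axis and the authors' score as the length of each stem, WT upward and TKO downward (1 library each). Jag1 has 7 WT loops and 2 TKO loops, and Dll1 and Dll3 have the most in both lists.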

How the data were processed

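The RNA-seq tables hold a non-negative signal, the authors' normalised counts, read counts per gene divided by DESeq2 size factors, in 1 deposited table per cell type. Per the submitters' processing notes, STAR 2.7.3a, DESeq2 1.40.2, Trim Galore 0.6.5 and featureCounts were among the tools, and mm10 was the build. The sources used here do not say whether counting used strand. The values of a library came in steps of between 0.918 and 1.08, and 100.0% came out as whole reads (tolerance 1e-06), 41.0 to 49.1 M per library. Of values of up to 20 reads, 75.2% to 82.7% were even, so that both mates of a pair may have been counted, and pairs then number 20.5 to 24.5 M.

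The test of TKO against WT in each table was the moderated linear model of limma 3.58.1 (trend, R 4.3.3), on log2(value + 1). Genes with means under 10 were left out. Tests were two-sided, and Benjamini-Hochberg adjustment covered all genes tested. Fold changes on this scale understate the change of low genes. For NSC against ESC the recovered reads of both tables were put on 1 scale by medians of ratios and fitted in 1 model of 4 groups. In the interaction each table's scaling cancels. Alternatives were other pseudocounts (0.5 and 5), no filter, equal totals, edgeR 4.0.16 and DESeq2 1.42.0 on recovered reads, robust moderation, a replicate block, and each library left out. A limma fit of TKO against WT, written the same way, was tried on simulated counts with the same dispersion for every gene. The interaction and the NSC against ESC fits were not simulated.

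The replicate numbers of TKO and WT samples are only numbers (correlations of deviations from the group means between same-numbered samples of -0.01 to 0.01). Between cell types, the column codes of the labels give the same line codes under the same number, so the lines pair there, although the deviations did not move together (-0.03 to 0.03). The block changed no call of the 10 genes in those comparisons.

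Loops are the authors' deposited lists, 2 fragments and a score each. The sources used here name no loop caller. Loops were counted as distinct partners of the fragment with the RefSeq start, or, for Hes1 and Hey1, with either end of the span. Coordinates are mm10, 1-based. Promoter sequences are RefSeq's (GRCm38.p6). All 10 genes are named, and from each pathway list up to 4 called genes of the largest change per comparison. The genes and lists were chosen with earlier results of these data known. The bisulfite and CUT&Tag data were not used here.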

Additional observations from a re-analysis of the deposited data

Results flagged for a closer look

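For 4 of the 10 genes the effect of TET loss differed between NSCs and ESCs by the interaction test of limma, where 20.7% of all genes were called. Notch2 differed by -1.44, being lower in TKO NSCs and not called in ESCs. Hey1 differed by 1.21, with both TKO libraries below WT in ESCs, where it was not called, and above WT in NSCs. Notch3 differed by 0.71, called lower in TKO ESCs and higher in TKO NSCs. Lfng differed by -0.94, a call that needed TKO ESC replicate 1 among others.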

How the results depend on the processing

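In TKO against WT ESCs 2 of the 10 genes were called, and 0 with the replicate block in limma, 3 at an unadjusted p under 0.05 (Notch3 adjusted p = 0.179, Jag1 adjusted p = 0.0638), whose numbers do not pair these samples. Leaving out 1 library gave 0 to 3 called genes there. In NSCs the block gave 8 in place of 7, adding Hes5 (1.09, adjusted p = 0.000111), and leaving out 1 library gave 5 to 7. For the difference between cell types leaving out 1 library gave 3 to 4, and for NSC against ESC 6 to 7 in WT and 6 to 8 in TKO. Equal totals gave 8 in WT and 10 in TKO, in place of 7 and 8. Over all genes, equal totals called 11752 in WT and 10929 in TKO, in place of 11584 and 10798 of 15381. The block called 1912 in place of 2437 of 17033 genes in ESCs, and 6275 in place of 6698 of 17744 in NSCs. The loop difference of 0 became -3 with a score of at least 10 and 5 with either end of the span. No call of the 10 genes changed direction in any alternative run. With 2 TKO samples per cell type, differences as small as those of Notch1 in NSCs or Hes1 in ESCs lie near the limit of the test, and loops have no replicate.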
